A study of Mus musculus with 12 samples.

Results

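Yes-associated protein (YAP, gene Yap1) and its paralogue TAZ (gene Wwtr1) are transcriptional coactivators that act through the TEAD DNA-binding factors. The present account covers 10 mouse genes of this axis: the coactivators Yap1 and Wwtr1, the TEAD factor Tead1, the regulators Lats2, Amotl2 and Ajuba, and the target genes Ccn1, Ccn2, Ankrd1 and Axl. Each gene was represented by the array row that carries its symbol alone, or, where there were several, by the one whose mean across the 12 arrays was highest. All 10 were found among the 22180 genes with such a row. All 10 exceeded the table's median log2 value of 4.93 on every array, and they are therefore among the 13286 genes that entered the tests. The set was selected on measured values of these arrays, because Ccn1 was among the genes with the largest drop in tumours of fatty liver. The values of all 10 genes in the comparison of fatty with healthy liver are accordingly a description, and so are the values of Ccn1 throughout. How many of them passed the threshold of the fit is given there only beside the share of all genes that did, and is no test of the set.

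The samples were tumour tissue of mouse colorectal cancer cells that had been injected into a healthy or a fatty liver, in mice given vehicle or anti-VEGF, an antiangiogenic treatment directed at vascular endothelial growth factor. This gave 4 groups of 3 arrays, each group from 3 mice per the series' design text: healthy liver with vehicle, healthy liver with anti-VEGF, fatty liver with vehicle, and fatty liver with anti-VEGF. All groups share the injected tumour and the site of growth. The cancer line, the strain, age and sex of the hosts, the way the liver was made fatty, the dose and the duration of treatment are unnamed in the labels used here. Whole tumour tissue was profiled, so fewer cells of a type and less RNA per cell cannot be told apart in any value below.

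In the Hippo pathway, the kinases MST1 and MST2 activate LATS1 and LATS2, which phosphorylate YAP and TAZ and keep them out of the nucleus. When this brake is released, YAP and TAZ enter the nucleus, bind TEAD factors and switch on genes for secreted matrix proteins, cytoskeletal proteins and growth control. Some of their targets, among them Lats2 and Amotl2, feed back on the pathway as inhibitors. In the intestine YAP is known for its part in regeneration and tumour growth, and in the liver the pathway is known for the control of organ size. Expression values on arrays report RNA, not the location or phosphorylation of the proteins.

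The DNA just upstream of the start sites of the 10 genes was read for the core TEAD motif, GGAATG, or its reverse complement CATTCC on the other strand. The windows were the 250 bases before each annotated start, from RefSeq on GRCm38.p6. 8 of the 10 genes had at least 1 window in that table, and Ccn2 and Tead1 had none there. The motif was present upstream of 7 of these 8 genes, all but Lats2, against 3880 of 27025 genes with a window (14.4%). The genes were listed as parts and targets of this axis, so their share is a description and no test. Axl and Amotl2, with smaller differences between livers, had the motif too. In Lats2 a match lay just after the start, outside the part read. The 4 sequences below were chosen to show the motif in the targets and regulator with the largest differences between livers (Ccn1, Ankrd1 and Ajuba) and in the coactivator Yap1, each on the minus strand, 5′ to 3′, with the motif in capitals.
Ccn1: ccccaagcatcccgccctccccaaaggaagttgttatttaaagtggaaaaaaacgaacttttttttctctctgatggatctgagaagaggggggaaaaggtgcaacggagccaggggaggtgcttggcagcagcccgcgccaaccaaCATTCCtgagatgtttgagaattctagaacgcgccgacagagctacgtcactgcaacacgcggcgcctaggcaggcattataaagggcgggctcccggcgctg
Ankrd1: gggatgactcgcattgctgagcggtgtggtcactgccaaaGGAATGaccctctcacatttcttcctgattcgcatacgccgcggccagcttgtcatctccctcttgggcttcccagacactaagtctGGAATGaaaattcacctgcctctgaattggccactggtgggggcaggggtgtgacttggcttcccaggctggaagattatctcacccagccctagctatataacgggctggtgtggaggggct
Ajuba: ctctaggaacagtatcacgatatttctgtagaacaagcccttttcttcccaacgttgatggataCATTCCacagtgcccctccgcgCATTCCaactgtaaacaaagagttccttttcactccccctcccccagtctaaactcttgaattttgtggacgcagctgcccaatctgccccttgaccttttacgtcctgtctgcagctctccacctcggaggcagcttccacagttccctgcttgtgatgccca
Yap1: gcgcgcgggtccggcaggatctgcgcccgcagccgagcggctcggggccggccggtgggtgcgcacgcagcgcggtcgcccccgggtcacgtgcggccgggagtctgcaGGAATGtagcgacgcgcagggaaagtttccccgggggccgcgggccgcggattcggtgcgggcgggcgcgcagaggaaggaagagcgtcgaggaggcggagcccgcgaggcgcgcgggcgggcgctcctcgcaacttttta
The Ccn1 window spans chr3:145649986-145650235, and its motif begins 103 bases before the start. The Ankrd1 window spans chr19:36119845-36120094 and holds 2 motifs, at 210 and 123 bases before the start. The Ajuba window spans chr14:54577662-54577911 and holds 2 motifs, at 186 and 164 bases. The Yap1 window spans chr9:8004597-8004846 and holds 1 motif, at 141 bases. Axl had its motif at 233 bases and Amotl2 at 65 bases. The overlapping windows of Wwtr1 share a single motif, at 136 and 170 bases from their respective starts. A match is a stretch of letters and not a measured binding site.

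Arrays within a group were not equally alike. Of the 12 pairs of arrays within groups, 5 differed by an SD of at most 0.163 over the tested genes: arrays 1 and 3 of each vehicle group and all 3 pairs of the healthy liver anti-VEGF group. In the other 7 pairs the SD lay between 0.391 and 0.636. The labels call all arrays biological replicates, but whether the near-identical ones came from separate animals could not be checked here; if they did not, the small SDs of these groups measure technical spread and n is below 3. Xist, the RNA that coats an inactive X chromosome, separated the same vehicle arrays, with 8.10 and 8.43 on arrays 1 and 3 of healthy liver, 10.58 and 10.45 on arrays 1 and 3 of fatty liver, and at most 4.32 on the other 8 arrays. Vehicle array 2 of healthy liver stood apart in stromal genes, and anti-VEGF array 3 of fatty liver stood apart in lymphocyte genes, as given beside the results they touch. The labelled tissue was only partly borne out by its markers. Epcam, Vil1 and Krt20 were below the limit of 4.93 on all 12 arrays, and Cdx2 was above it on 4. Krt8 ranged from 9.12 to 10.82 and Krt18 from 6.47 to 8.36, both lower on every fatty liver array than on every healthy liver array. Cdh1 went the other way, with 5.63 to 6.40 in healthy liver and 8.03 to 8.67 in fatty liver, except 5.97 on anti-VEGF array 3. The part of the tumour cells in the differences of the 10 genes was not tested. Alb, the main hepatocyte product, ranged from 3.24 to 4.07 and was below the limit on every array.

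Across both treatments, the coactivators Yap1 and Wwtr1, the factor Tead1, the adaptor Ajuba and the targets Ccn1 and Ankrd1 had lower values in tumours of fatty liver than in tumours of healthy liver. For these 6 genes, each of the 6 fatty liver arrays lay below each of the 6 healthy liver arrays. Under vehicle their differences ranged from 1.74-fold for Yap1 to 2.37-fold for Ankrd1, and under anti-VEGF from 1.73-fold for Yap1 to 2.91-fold for Ccn1. Lats2, Amotl2, Ccn2 and Axl differed less or not in the same direction under both treatments. The plot of the values by array shows these patterns for all 10 genes.

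**Figure D1:**
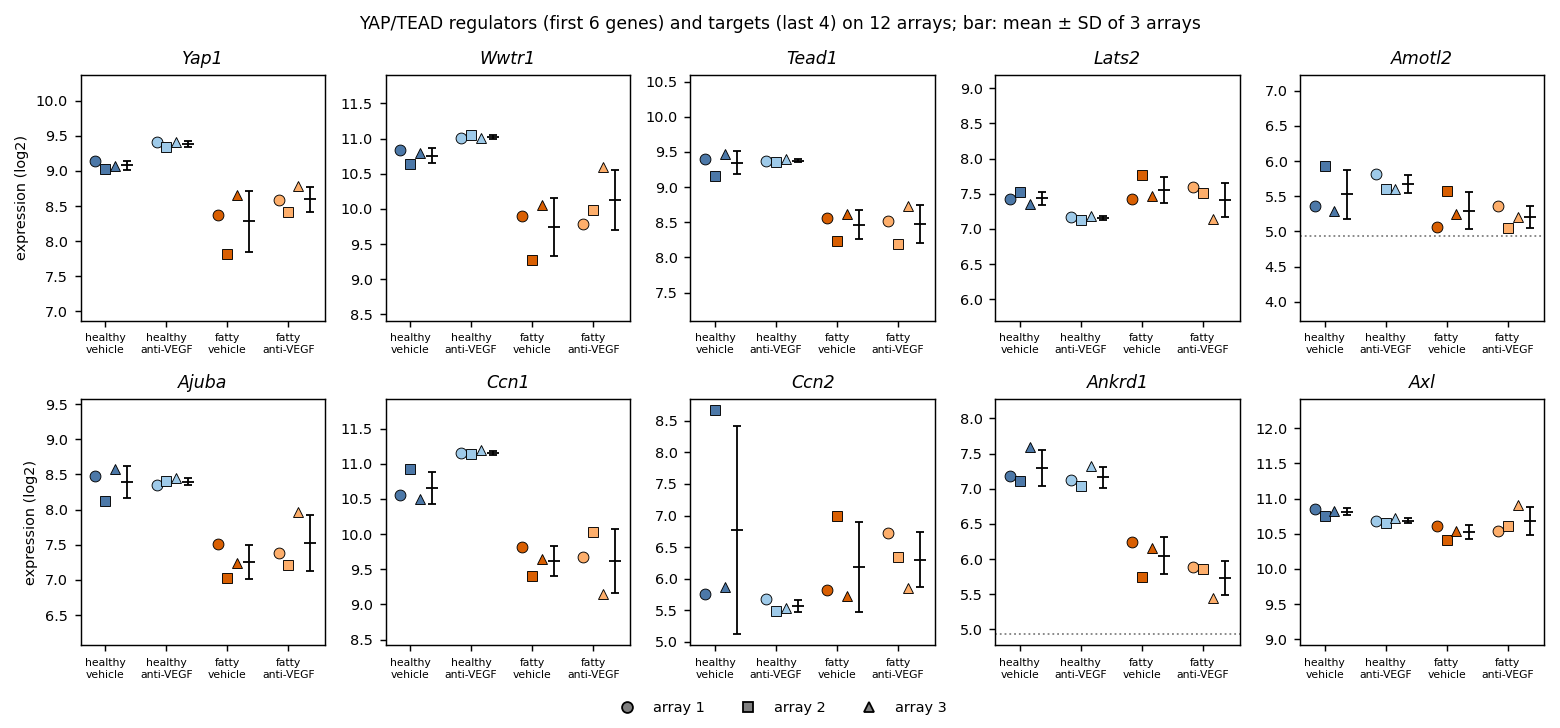
Deposited log2 expression value (vertical axis, spanning the same width for each gene unless its values need more) of the 10 genes on 12 arrays by group; circles, squares and triangles are arrays 1, 2 and 3 of a group, the bar is the mean ± SD of 3 arrays, and the dotted line is the limit of 4.93. For Yap1, Wwtr1, Tead1, Ajuba, Ccn1 and Ankrd1 all 6 fatty liver points lie below all 6 healthy liver points, whereas Ccn2 has 1 healthy liver vehicle point at 8.67, far above the others.

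Yap1, the coactivator on which the Hippo kinases act, had log2 values of 9.14, 9.03 and 9.07 in healthy liver with vehicle and 8.37, 7.81 and 8.66 in fatty liver with vehicle. Under anti-VEGF the values were 9.41, 9.33 and 9.41 in healthy liver and 8.59, 8.42 and 8.78 in fatty liver. The livers did not overlap under either treatment, and the fatty liver arrays were more spread out, with an SD of 0.43 under vehicle against 0.06 in healthy liver. The log2 difference, fatty minus healthy, was -0.80 (SE 0.18) under vehicle and -0.79 (SE 0.18) under anti-VEGF. A second Yap1 row stayed between 3.27 and 3.62, below the limit, and was not used.

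Wwtr1, which encodes TAZ, had values of 10.84, 10.64 and 10.79 in healthy liver with vehicle against 9.90, 9.27 and 10.05 in fatty liver with vehicle. With anti-VEGF it had 11.01, 11.05 and 11.01 in healthy liver against 9.79, 9.99 and 10.60 in fatty liver. The groups were again apart, with the fatty liver anti-VEGF array 3 closest to the healthy liver. The log2 differences were -1.02 and -0.90 (SE 0.22).

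Tead1, a DNA-binding partner of both coactivators, had values of 9.41, 9.16 and 9.47 in healthy liver and 8.56, 8.23 and 8.61 in fatty liver under vehicle. Under anti-VEGF they were 9.37, 9.36 and 9.40 against 8.52, 8.19 and 8.73. The groups did not overlap, and the differences were -0.88 and -0.90 (SE 0.15). The TEAD paralogues, which are not among the 10 genes, had lower group means in fatty liver too: Tead2 by -0.98 and -0.76, Tead3 by -0.57 and -0.51, and Tead4 by -1.04 and -0.75 under vehicle and anti-VEGF.

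Among the regulators, Ajuba, a LIM-domain scaffold that binds LATS kinases and restrains them, had values of 8.48, 8.13 and 8.57 in healthy liver and 7.51, 7.02 and 7.24 in fatty liver under vehicle. Under anti-VEGF it had 8.35, 8.40 and 8.44 against 7.39, 7.22 and 7.97. The groups did not overlap, and the log2 differences were -1.14 and -0.87 (SE 0.20).

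Lats2, a kinase that inhibits YAP and TAZ and is also one of their targets, did not follow this pattern. Its values were 7.43, 7.53 and 7.35 in healthy liver with vehicle and 7.43, 7.76 and 7.46 in fatty liver with vehicle, which overlap. With anti-VEGF they were 7.18, 7.13 and 7.18 in healthy liver and 7.59, 7.51 and 7.14 in fatty liver, where array 3 lay among the healthy liver values. The differences were 0.11 (95% interval -0.17 to 0.40) under vehicle and 0.25 (-0.03 to 0.54) under anti-VEGF. Without anti-VEGF array 3 of fatty liver the second difference was 0.39. Its paralogue Lats1 had lower means in fatty liver, by -0.23 under vehicle and -0.31 under anti-VEGF (SE 0.08).

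Amotl2, an angiomotin-like junction protein that holds YAP in the cytoplasm, had values of 5.37, 5.93 and 5.29 in healthy liver and 5.06, 5.58 and 5.25 in fatty liver under vehicle. Vehicle array 2 was the highest of its group in each liver, and the groups overlapped. Under anti-VEGF the values were 5.82, 5.60 and 5.60 in healthy liver and 5.36, 5.05 and 5.21 in fatty liver, with no overlap. The differences were -0.23 and -0.47 (SE 0.18), and the first was -0.033 without vehicle array 2 of healthy liver and -0.37 without vehicle array 2 of fatty liver. These are levels close to the limit of 4.93, where a difference can be understated.

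Of the targets, Ccn1 (formerly Cyr61), a secreted matrix protein that binds integrins and is a textbook target of YAP, led to the choice of the set. It had values of 10.56, 10.92 and 10.50 in healthy liver and 9.81, 9.40 and 9.65 in fatty liver under vehicle. Under anti-VEGF the values were 11.15, 11.14 and 11.19 in healthy liver and 9.67, 10.03 and 9.14 in fatty liver. The order of the group means was healthy liver with anti-VEGF (11.16 ± 0.03, SD, n = 3), healthy liver with vehicle (10.66 ± 0.23), and then both fatty liver groups, with vehicle (9.62 ± 0.21) and with anti-VEGF (9.62 ± 0.45), which did not differ beyond their spread. The log2 difference between the livers was -1.04 (SE 0.20) under vehicle and -1.54 (SE 0.20) under anti-VEGF, or 2.06-fold and 2.91-fold lower. Ranked from the lowest difference upwards among all 13286 genes, Ccn1 was number 373 under vehicle and number 8 under anti-VEGF.

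Ankrd1, a nuclear ankyrin-repeat protein and a widely used readout of YAP and TEAD, had values of 7.18, 7.11 and 7.59 in healthy liver and 6.25, 5.75 and 6.15 in fatty liver under vehicle. With anti-VEGF they were 7.12, 7.03 and 7.33 against 5.88, 5.85 and 5.45. The groups were well apart, and the differences of -1.25 and -1.43 (SE 0.18) placed Ankrd1 at number 99 and number 19 of all genes from the lowest upwards.

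Ccn2 (formerly Ctgf), the close relative of Ccn1 and likewise a known YAP target, behaved differently. Its values in healthy liver with vehicle were 5.76, 8.67 and 5.87, so that array 2 exceeded the others by 2.85 on the log2 scale. In fatty liver with vehicle they were 5.82, 6.997 and 5.72, with array 2 again the highest. Under anti-VEGF they were 5.67, 5.49 and 5.53 in healthy liver and 6.72, 6.34 and 5.85 in fatty liver, where the fatty liver arrays were all higher. The difference between livers was -0.59 (95% interval -2.06 to 0.89) under vehicle and 0.74 (-0.74 to 2.21) under anti-VEGF. Without vehicle array 2 of healthy liver, the difference under vehicle was 0.36, the opposite sign.

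Axl, a receptor tyrosine kinase and target of YAP in cancer cells, changed little. Its values under vehicle were 10.85, 10.76 and 10.83 in healthy liver and 10.61, 10.41 and 10.54 in fatty liver, a small gap with no overlap. Under anti-VEGF the values were 10.68, 10.65 and 10.72 against 10.53, 10.61 and 10.91, which overlap. The differences were -0.29 and 0.00 (SE 0.10).

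Counted over the set, 7 of the 10 genes passed an adjusted p of 0.05 (limma, Benjamini-Hochberg over all genes) with a lower value in fatty liver under vehicle, where 30.4% of all genes did so and 49.6% passed in either direction. They were Yap1, Wwtr1, Tead1, Ajuba, Ccn1, Ankrd1 and Axl. Under anti-VEGF 6 of the 10 did, all but Axl of those, against 27.6% of all genes (45.8% in either direction). None of the 10 passed with a higher value, which 19.2% of all genes did under vehicle and 18.2% under anti-VEGF. The median difference of the 10 genes was -0.84 under vehicle and -0.83 under anti-VEGF, and that of all tested genes was -0.12 and -0.13. All 6 fatty liver arrays lay below all 6 healthy liver arrays for 6 of the 10 genes and for 16.6% of all genes. Under vehicle 7 of the 10 had groups that did not overlap, all lower, where 37.2% of all genes were lower and 23.6% higher without overlap. Under anti-VEGF 7 were lower without overlap, Amotl2 in place of Axl, and 1 was higher, Ccn2, where the shares of all genes were 36.6% and 21.9%. Since these contrasts led to the choice of the set, nothing is read from its counts.

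With near-identical arrays averaged, which left 8 arrays, 1 of the 10 genes passed under each treatment, Ankrd1, at -1.28 under vehicle and -1.43 under anti-VEGF. In that fit the healthy liver anti-VEGF group is 1 averaged array, assumed to vary like the other groups. Leaving out the 4 vehicle arrays high in Xist leaves 1 vehicle array in each liver, array 2, so that the 3 genes then past the threshold under vehicle (Yap1, Ccn2 and Ankrd1) rest on 1 array against 1, with the spread taken from the anti-VEGF groups. Without the pair of arrays that stood apart 9 passed under anti-VEGF, with Lats2 and Ccn2 higher and Amotl2 lower in fatty liver besides the 6. The share of all genes that passed in that fit is not given here. Nothing about the set is read from its counts in these alternative fits. The call of Axl under vehicle was lost in 7 of 12 fits that each left out 1 array: arrays 1 and 3 of healthy liver with vehicle, each of the 3 arrays of healthy liver with anti-VEGF, and arrays 2 and 3 of fatty liver with vehicle.

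**Figure D2:**
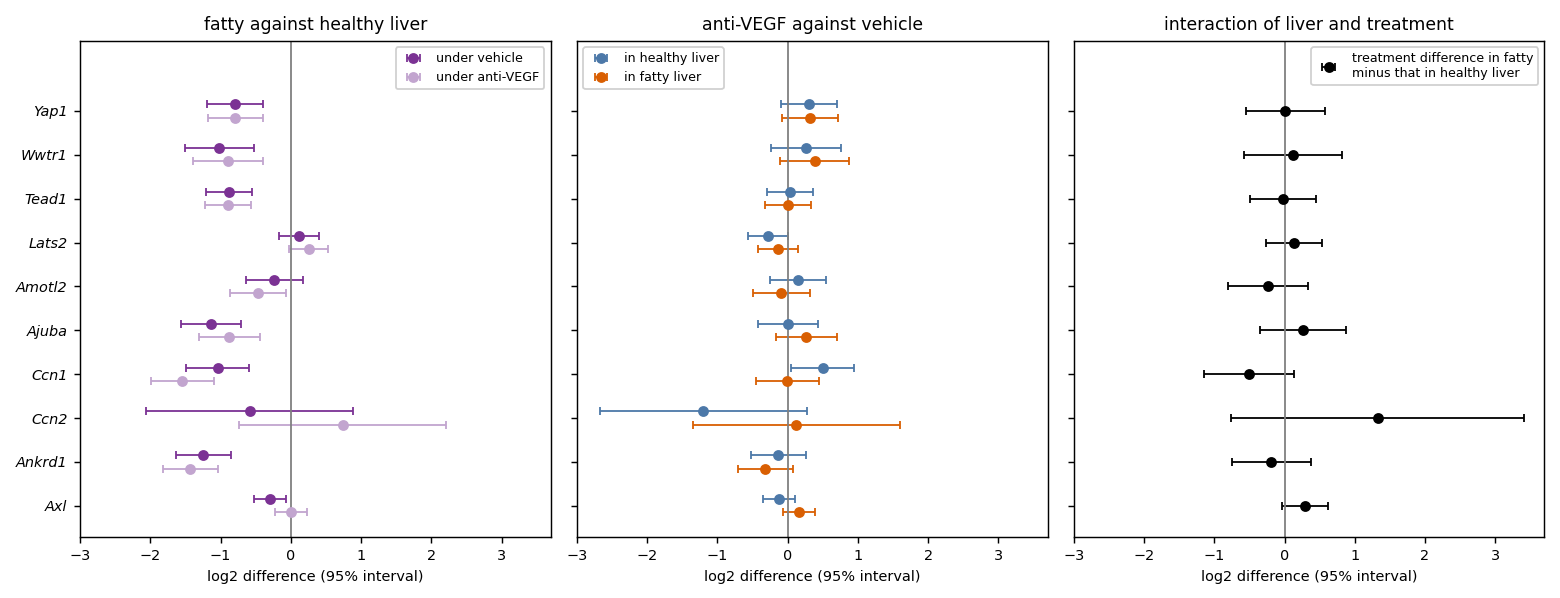
Log2 differences of the 10 genes (horizontal axis) with 95% intervals from the limma fit of all 12 arrays: fatty minus healthy liver under each treatment, anti-VEGF minus vehicle in each liver, and the interaction. The differences between livers are shown as a description; those of Yap1, Wwtr1, Tead1, Ajuba, Ccn1 and Ankrd1 lie between -1.54 and -0.79, while the treatment differences and the interaction are smaller than these for all genes but Ccn2 (-1.20 for treatment in healthy liver and 1.32 for the interaction), which has the widest intervals; apart from Ccn1 for treatment in healthy liver, their intervals include 0.

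Within fatty liver, anti-VEGF array 3 was high for some of the 10 genes and low for others. Against the mean of the other 2 arrays of its group, it was higher by 0.71 for Wwtr1, 0.67 for Ajuba, 0.38 for Tead1, 0.34 for Axl and 0.27 for Yap1, and all 5 were at their highest fatty liver value there. On the same array Ccn1 was lower by -0.71, Ccn2 by -0.68, Ankrd1 by -0.42 and Lats2 by -0.41, Amotl2 did not differ to 2 decimals (0.00), and both Ccn1 and Ankrd1 had their lowest value of all 12 arrays. The T and NK cell marker mean of that array was 5.68, against 7.72 to 8.60 on the other fatty liver arrays and 5.10 to 5.80 in healthy liver. Its cell cycle mean was 10.02, against 9.03 to 9.54 on the other fatty liver arrays. This is 1 array, and the part of these cell types in the result was not tested.

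Markers of other cells moved with the liver as well. The macrophage marker mean was 8.66 to 9.88 on the healthy liver arrays and 10.70 to 11.10 on the fatty liver arrays, and 16 of 16 tested markers passed with higher values in fatty liver under both treatments. For T and NK cell markers 17 of 17 passed under vehicle and 14 of 17 under anti-VEGF, all higher. Cell cycle genes went the other way under vehicle, with 15 of 19 passing with lower values. Under anti-VEGF 5 of 19 did, close to the share of all genes. Among all tested genes 30.4% passed with lower and 19.2% with higher values under vehicle, and 27.6% and 18.2% under anti-VEGF. The endothelial mean was 8.56 on vehicle array 2 of healthy liver against 5.36 to 5.48 on the other healthy liver arrays, and 7.22 on vehicle array 2 and 6.74 on anti-VEGF array 1 of fatty liver against 5.51 to 5.74 on the remaining 4. The fibroblast and matrix mean was highest on the same 3 arrays, at 9.87, 8.50 and 8.71, and these are also the arrays with the highest Ccn2 values in their groups. The part of these cells in the differences of the 10 genes was not tested.

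**Figure D3:**
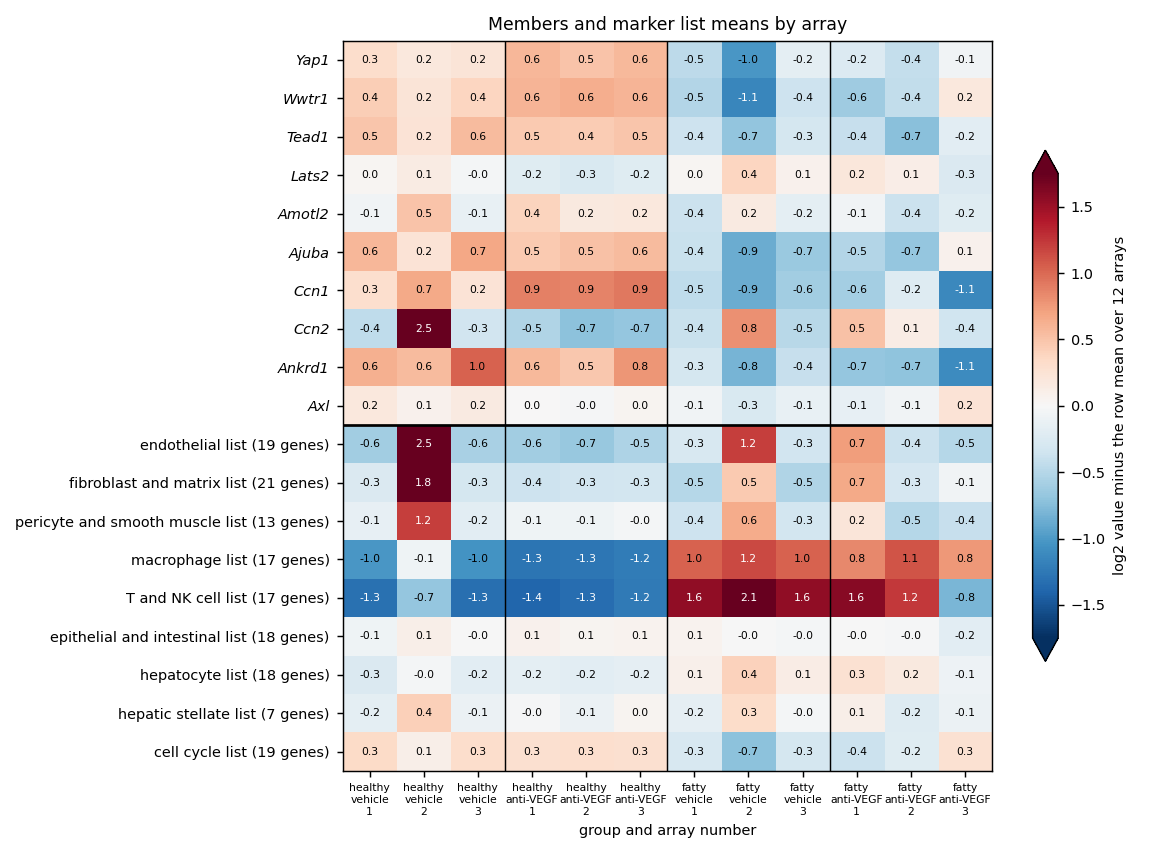
Heat map of the log2 value minus the row's mean over 12 arrays (colour scale and printed number), with 1 column per array, the 10 genes in the upper rows and the means of 9 marker lists in the lower rows. Ccn2 and the endothelial list share their highest column, vehicle array 2 of healthy liver, where they measured 8.67 and 8.56; Wwtr1 and Ajuba on anti-VEGF array 3 of fatty liver lie nearer to the healthy liver columns, and Ccn1 and Ankrd1 are at their lowest there.

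Anti-VEGF was compared with vehicle to ask whether treatment moved these genes within a liver. In healthy liver, none of the 10 genes passed the threshold, and 0% of all tested genes did. An unadjusted p under 0.05 was found for 1118 genes, and none of the 9 genes other than Ccn1 was among them. The group means of Yap1 and Wwtr1 were higher with anti-VEGF by 0.31 (95% interval -0.09 to 0.70) and 0.26 (-0.23 to 0.76), with no overlap between groups. Lats2 was lower by -0.28 (-0.56 to 0.01) and Axl by -0.13, also without overlap. Adjusted p-values from limma for the 9 genes ran from 0.604 to 0.999. Groups that did not overlap were found for 13.1% of all genes in the higher and 11.7% in the lower direction. Ccn2 was lower without overlap and had the widest interval of the set, with a difference of -1.20 (-2.67 to 0.27) that became -0.25 without vehicle array 2. Ccn1, as a description, was higher by 0.50 (SE 0.20), with 11.14 to 11.19 under anti-VEGF against 10.50 to 10.92 under vehicle.

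In fatty liver none of the 9 genes passed, against 1 gene of all those tested (0.00753%), and the adjusted p-values were 0.795 to 0.993; 778 genes had an unadjusted p under 0.05, with none of the 9 among them. The values with and without treatment overlapped for all 10 genes, where 3.07% of all genes were higher and 4.99% lower with no overlap. Differences in group means were 0.38 for Wwtr1, 0.31 for Yap1, 0.27 for Ajuba, 0.16 for Axl and 0.01 for Tead1, and -0.32 (95% interval -0.71 to 0.08) for Ankrd1. Without vehicle array 2 the first 3 were 0.15, 0.08 and 0.15. Without anti-VEGF array 3, Wwtr1 was at 0.15, Ajuba at 0.046 and Ankrd1 at -0.18, and Yap1 was at 0.50 without vehicle array 3. Ccn1 had the same mean in both groups to 2 decimals, 9.62.

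The interaction, the treatment difference in fatty liver minus that in healthy liver, passed for 0% of tested genes and for none of the 9; 677 genes and none of the 9 had an unadjusted p under 0.05. The estimate was 1.32 (SE 0.94) for Ccn2, which became 0.37 without vehicle array 2 of healthy liver. For Ccn1 it was -0.50 (SE 0.29), which became -0.26 without anti-VEGF array 3 of fatty liver. For Axl it was 0.29 (SE 0.14), which became 0.18 without that array. Adjusted p-values of the 9 genes were 0.969 to 0.999. With 3 arrays a group, the dependence of the treatment difference on the liver was not resolved for any of them.

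The wider Hippo pathway was described from a list of 29 regulators, cofactors and TEAD paralogues, of which 26 had a row of their own and 22 were tested. Tead2, Tead3, Tead4 and Lats1, given above, are in this list and among the genes that passed with lower values under both treatments. Under vehicle 3 passed with higher and 12 with lower values in fatty liver (median -0.36), and under anti-VEGF 3 and 10 (median -0.24). The medians of all genes were -0.12 and -0.13. Among all tested genes 19.2% passed with higher and 30.4% with lower values under vehicle, and 18.2% and 27.6% under anti-VEGF. The higher ones included Taok3, a kinase upstream of MST1 and MST2 (0.61 and 0.60, SE 0.08), Mob1a, the LATS cofactor (0.35 and 0.28), the MST1 gene Stk4 (0.36 under vehicle) and Taok2 (0.37 under anti-VEGF). The lower ones included Frmd6, a membrane-associated activator of the pathway (-0.95 and -0.98, SE 0.15), and the angiomotin relative Amotl1 (-0.84 and -0.59, SE 0.11). Also lower under both treatments were the YAP-binding phosphatase Ptpn14 (-1.17 and -0.70, SE 0.20) and the TEAD competitor Vgll4 (-0.36 and -0.43, SE 0.09). Inhibitors of YAP were thus found in both directions.

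A list of 16 further genes of published YAP signatures had 13 tested. Of these, 1 passed with higher and 9 with lower values under vehicle (median -0.74), and 1 and 8 under anti-VEGF (median -0.37). The shares of all tested genes were 19.2% higher and 30.4% lower under vehicle, and 18.2% and 27.6% under anti-VEGF. The lower ones included Crim1, a transmembrane regulator of growth factors (-1.06 and -0.85, SE 0.12), the RNA-binding protein gene Rbms3 (-0.98 and -0.81, SE 0.13) and the tissue factor gene F3 (-0.74 and -0.75, SE 0.18). The exception was Nuak2, a kinase induced by YAP, which was higher in fatty liver by 1.44 and 1.58 (SE 0.21). Ptpn14 stands in both lists. With near-identical arrays averaged, 2 Hippo regulators and 3 signature genes passed under vehicle and 0 of each under anti-VEGF.

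**Figure D4:**
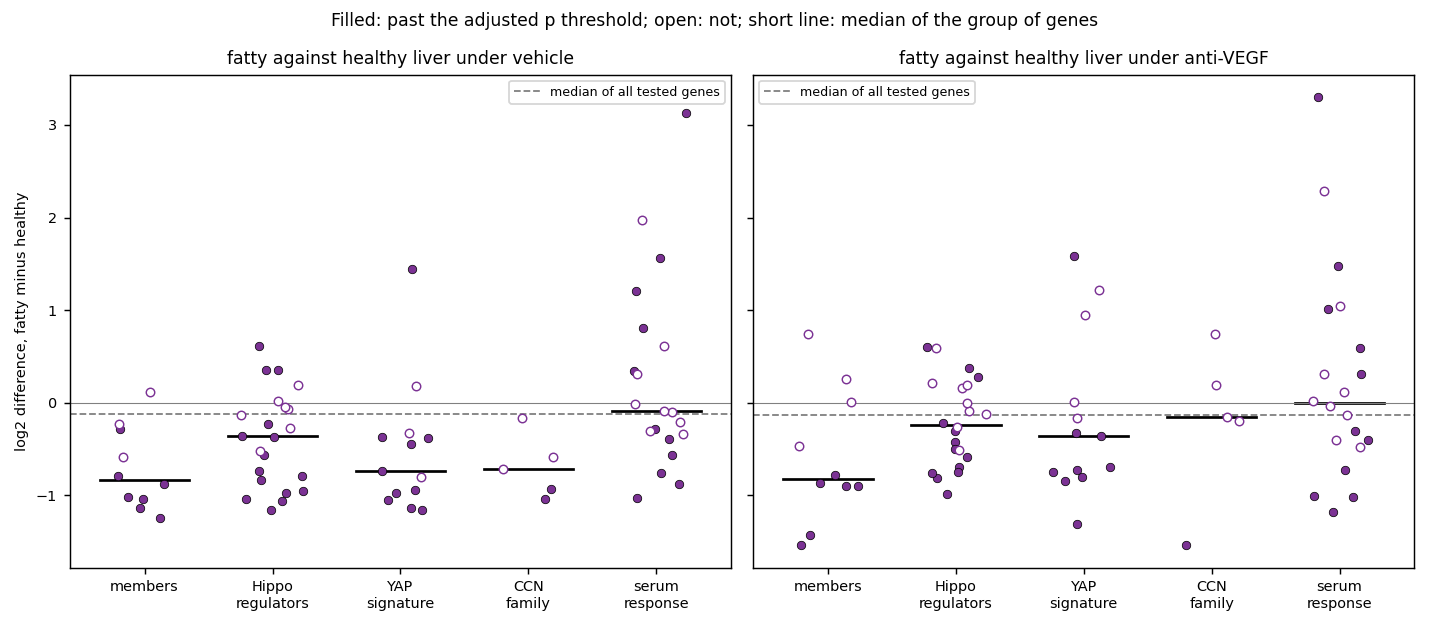
Log2 difference, fatty minus healthy liver (vertical axis), of each tested gene among the 10 members and in the lists of Hippo regulators, YAP signature, CCN family and serum response genes, under vehicle (left) and anti-VEGF (right); each point is 1 gene, filled where it passed the adjusted p threshold, with the median of each list as a short line and that of all tested genes dashed. The YAP signature list has its median at -0.74 and -0.37, with Nuak2 as its highest point at 1.44 and 1.58, and the serum response genes spread on both sides of 0, with medians of -0.09 and -0.01.

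Within the CCN family of matricellular proteins, 5 of 6 genes were tested, and Ccn3 was not. Ccn5, which lacks the C-terminal domain of its relatives, had values of 8.34, 8.45 and 8.29 in healthy liver with vehicle and 7.49, 7.39 and 7.39 in fatty liver with vehicle, a difference of -0.94 (SE 0.18). Under anti-VEGF the values were 7.44, 7.55 and 7.23 against 7.77, 7.10 and 7.90, which overlap, with a difference of 0.19. Ccn4 differed by -0.72 and -0.20 (SE 0.36) and Ccn6 by -0.17 and -0.15 (SE 0.12), none past the threshold. Ccn5 also had no overlap between treatments in healthy liver, where it was lower with anti-VEGF by -0.95 (95% interval -1.35 to -0.56; adjusted p = 0.132 in limma). In the treatment comparisons and the interaction, 0 genes of these lists passed.

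The genes whose centred log2 values over the 12 arrays lay closest to those of Ccn1 were Cavin2, a caveola coat protein gene, at a root mean square difference of 0.11, the small heat shock protein gene Cryab at 0.24, the Cdc42 effector gene Cdc42ep5 at 0.25, the hyaluronan-binding protein gene Tnfaip6 at 0.25 and Magea5 at 0.26. The median over the 12477 genes compared was 0.67. Cavin2 had group means of 8.24 and 8.75 in healthy liver with vehicle and anti-VEGF and of 7.35 and 7.24 in fatty liver. Because Cavin2 was picked for its closeness to Ccn1 on these arrays, this likeness is no separate result. Among the 10 genes themselves, Ankrd1 was the nearest to Ccn1 at 0.33. Yap1, Ajuba and Tead1 were nearer to Wwtr1, at 0.16, 0.19 and 0.23, than to Ccn1, at 0.42, 0.46 and 0.43. All these distances share the same 12 arrays and the split between livers.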

How the data were processed

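Total RNA of 12 tumours was amplified and labelled with biotin for whole-transcript arrays, per the labels' protocols. The values are log2 expression values as the authors deposited them, made with Affymetrix Expression Console per the submitters' processing notes. The sources used here do not name its version, the summarisation, the normalization or the genome build. That the scale is log2 follows from the values' range. Column medians ran from 4.88 to 4.99. Precision is limited by the number of arrays and, for dim genes, by signal over background; detection calls were not used.

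Rows with a single symbol in the platform annotation were kept, with the highest mean where a gene had several (1082 genes), and genes above the table median of 4.93 on at least 3 arrays were tested. The model was fitted to all 12 arrays with limma 3.58.1 in R 4.3.3, with a mean per group and 5 contrasts, 8 residual and 2.40 prior degrees of freedom, and Benjamini-Hochberg adjustment over 13286 genes at 0.05. The fit was tested on simulated data.

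The members, gene lists and tests were chosen with earlier results of these data known. Besides the 10 members, the naming rule took up to 3 genes per list, contrast and direction with the smallest p past the threshold, all CCN genes, the Tead and Lats paralogues, and the 5 genes nearest to Ccn1. A gene that this rule named in the YAP signature list is not reported here. No set test was run.

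Replicate numbers recur between groups. Deviations from group means correlated above 0.1 in all 3 same-numbered pairs for 1 combination of groups, healthy with fatty liver under vehicle (0.536, 0.701 and 0.549). In both vehicle groups arrays 1 and 3 are near-identical, so each deviates from its group mean mainly opposite to the remaining array. The 3 correlations are therefore tied together and are not separate signs of a pairing. The labels state no pairing, and these correlations cannot show one.

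Alternatives were no filter, quantile normalization, array weights, the replicate block, averaging of near-identical arrays (SD of the difference under 0.2), the mean over a gene's rows, leaving out the vehicle arrays high in Xist, and leaving out each array. Leaving out vehicle array 2 of healthy liver together with anti-VEGF array 3 of fatty liver was chosen after seeing the data.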

Additional observations from a re-analysis of the deposited data

How the results depend on the processing

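Counts of all genes varied most. With array weights, 1661 genes passed for treatment in healthy liver, 1848 for treatment in fatty liver, 9884 for liver under anti-VEGF and 1477 for the interaction. Such weights favour arrays that lie close to their group mean, as near-identical arrays do. If those arrays did not come from separate animals, calls under this setting rest partly on technical spread. Without the vehicle arrays high in Xist, which leaves each vehicle group with array 2 alone and takes the spread from the anti-VEGF groups, the counts were 754 and 0 for treatment in healthy and fatty liver, 1057 for liver under vehicle and 19 for the interaction. With near-identical arrays averaged, which leaves 1 array of healthy liver with anti-VEGF, 721 and 510 genes passed for liver under vehicle and anti-VEGF, and 0 for treatment in fatty liver. Without the pair of arrays that stood apart, 39 and 0 genes passed for treatment in healthy and fatty liver and 1 for the interaction. Leaving out 1 array at a time gave 0 to 41 genes for treatment in healthy liver and 0 to 11 in fatty liver. With the replicate block, 6671 genes and the same 7 members passed for liver under vehicle and 0 genes for treatment in fatty liver, and the block changed no other count of members.

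Of the members, array weights let 3 pass for treatment in healthy liver (Lats2, Amotl2 and Ccn1) and 1 in fatty liver (Tead1). For liver under anti-VEGF the weights let 9 pass, adding Lats2, Amotl2 and Ccn2, where the count of all genes given above was larger too. Quantile normalization let 7 pass there, adding Amotl2. With no filter on low values 6 passed for liver under vehicle, and Axl was lost. Without the arrays high in Xist, 1 passed for treatment in healthy liver (Ccn2, which rests on vehicle array 2 with its value of 8.67) and 3 for liver under vehicle, and averaging near-identical arrays left 1 for liver under each treatment.

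Signs turned for small differences. For treatment in healthy liver, Tead1 went to -0.049 with weights and -0.061 without the pair of arrays, and Ajuba to -0.11 and -0.13. Without the arrays high in Xist, Amotl2 went to -0.25 and Ankrd1 to 0.049. For treatment in fatty liver, weights gave -0.11 for Yap1, -0.36 for Tead1, 0.033 for Lats2 and -0.043 for Ajuba. Tead1 was -0.12 without the pair of arrays, and Ccn2 was -0.081 with averaging and -0.70 without the arrays high in Xist. For the interaction, Yap1 was -0.012 with quantile normalization, -0.39 with weights and -0.057 without the pair of arrays. Wwtr1 was -0.19 and -0.059 under the latter settings, Tead1 was 0.028 without the arrays high in Xist, and Ankrd1 was 0.044 without the pair of arrays. Over the fits that each left out 1 array, treatment in healthy liver ran from -0.061 to 0.10 for Tead1, -0.13 to 0.095 for Ajuba and -0.22 to 0.016 for Ankrd1. Treatment in fatty liver ran from -0.12 to 0.15 for Tead1, -0.21 to 0.053 for Amotl2 and -0.11 to 0.53 for Ccn2. The interaction ran from -0.23 to 0.20 for Yap1, -0.12 to 0.29 for Wwtr1 and -0.15 to 0.12 for Tead1. The cause was not tested in any case.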

Other observations

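Ccn1 and Ankrd1 are also known to respond to serum response factor (SRF), so 24 genes of that program were described beside them, of which 20 were tested. In fatty against healthy liver, 5 passed with higher and 6 with lower values under each treatment, with medians of -0.09 under vehicle and -0.01 under anti-VEGF. Of all tested genes, 19.2% passed with higher and 30.4% with lower values under vehicle, and 18.2% and 27.6% under anti-VEGF. With near-identical arrays averaged, 0 passed. Of those that passed under both treatments, Fos was higher by 0.81 and 0.59 and Egr2 by 1.56 and 1.47 (SE 0.37). Junb was higher by 1.20 and 1.01 and the SRF cofactor gene Mrtfa by 0.35 and 0.31. The smooth muscle actin genes Acta2 and Actg2 were lower by -0.76 and -1.01 (SE 0.14) and by -1.03 and -1.18 (SE 0.17). The tropomyosin gene Tpm1 was lower by -0.88 and -1.02, and Vcl, the focal adhesion gene vinculin, by -0.56 and -0.73.

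Thbs1, a secreted inhibitor of angiogenesis, had values of 8.03, 11.21 and 8.17 in healthy liver with vehicle and 12.18, 12.52 and 12.11 in fatty liver with vehicle. Under anti-VEGF it had 8.19, 8.13 and 8.27 in healthy liver and 12.36, 12.14 and 10.003 in fatty liver. The livers did not overlap under either treatment, and the arrays nearest to the other liver were vehicle array 2 of healthy liver and anti-VEGF array 3 of fatty liver. Nuak2 had its lowest fatty liver value, 7.59, on the latter array and its highest healthy liver value, 7.06, on the former.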
